A study of Homo sapiens with 16 samples.

Results

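The messenger RNAs of 10 genes for small nucleolar ribonucleoprotein (snoRNP) and nucleolar proteins were followed through a proximity-labelling experiment in HEK293T cells, a human embryonic kidney line. The genes were taken by symbol: FBL, NOP56, NOP58 and SNU13 for the box C/D particles, DKC1, NHP2, NOP10 and GAR1 for the box H/ACA particles, and the nucleolar proteins NPM1 and NCL. They are 10 of 24878 genes with values, and all 10 were among the 16133 tested in the pull-downs. No member value rested on fewer than about 228 reads, the number for NOP10 in the first nuclear pull-down, and a filter on low values removed none of them.

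A snoRNP is a short RNA held by core proteins that guides an enzyme to a chosen base of ribosomal or spliceosomal RNA. In box C/D particles FBL is the enzyme that methylates the ribose, NOP56 and NOP58 are the scaffold proteins that hold it on the guide, and SNU13 (also called NHPX) binds the kink turn of the RNA. In box H/ACA particles DKC1 is the pseudouridine synthase, NOP10 and NHP2 help to position the guide and its substrate, and GAR1 assists substrate loading and release. NPM1 and NCL are abundant nucleolar proteins with roles in ribosome assembly and ribosomal DNA transcription. The proteins act in the nucleolus, whereas their mRNAs are translated in the cytoplasm like those of other proteins.

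Several of these genes also carry guide RNAs in their introns. GENCODE 29 (GRCh38) placed 14 small nucleolar RNAs (snoRNAs) inside 4 of the 10 genes, 5 in NOP56, 4 in NOP58, 3 in NCL and 2 in DKC1, and none inside the other 6. All 14 lay in an intron of the host's principal transcript, 9 carried a box C/D name, 4 a box H/ACA name and 1 only a family identifier. One guide of each host, and a second one of NOP56 from the other class, are printed here because they are the reason these mRNAs are called snoRNA hosts. Capitals mark the letters TGATGA (box C) and CTGA (box D) in the box C/D RNAs and the letters ACA near the end of the box H/ACA RNAs.
SNORD57 in NOP56, chr20:2656939-2657010, plus strand: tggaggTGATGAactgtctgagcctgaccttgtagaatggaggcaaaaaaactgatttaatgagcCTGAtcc
SNORA51 in NOP56, chr20:2655067-2655198, plus strand: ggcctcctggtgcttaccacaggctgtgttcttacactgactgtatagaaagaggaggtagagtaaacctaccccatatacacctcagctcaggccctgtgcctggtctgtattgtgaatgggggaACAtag
SNORD11 in NOP58, chr2:202293051-202293134, plus strand: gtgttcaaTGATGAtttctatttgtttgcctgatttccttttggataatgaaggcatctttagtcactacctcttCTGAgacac
SNORD20 in NCL, chr2:231456444-231456523, minus strand: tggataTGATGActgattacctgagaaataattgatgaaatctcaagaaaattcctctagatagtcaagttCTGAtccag
SNORA36A in DKC1, chrX:154768528-154768659, plus strand: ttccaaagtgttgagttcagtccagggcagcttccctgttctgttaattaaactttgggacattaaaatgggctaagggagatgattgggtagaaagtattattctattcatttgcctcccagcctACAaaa
Both box C and box D letters were found in 6 of the 9 RNAs with a box C/D name, and ACA in all 4 with a box H/ACA name. The libraries measured polyadenylated RNA, and the guides themselves were barely seen: of the 14, only SNORA51 and SNORA36A carried values, at most 0.287 and 0.337 CPM, which is 3 reads. SNORA51 was at 0 in 7 libraries and SNORA36A in 9. The results below therefore concern the polyadenylated RNAs of the host genes and not their guides. Spliced and unspliced forms were not separated.

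The experiment used BS2, an esterase that unmasks the probe AC-2 and so marks RNA close to the enzyme. Wild-type cells without a plasmid, and cells transiently expressing BS2 in the cytosol, the nucleus, the mitochondria or, by a NIK3x tag, the nucleolus, all received AC-2 at 50 µM for 3 min, in the transfected cells 24 h after transfection. Biotin was attached to the labelled RNA, which was pulled down and selected by poly(A). The 12 pull-downs comprised 3 non-transfected, 2 cytosolic, 3 nuclear, 2 mitochondrial and 2 nucleolar libraries, and 1 input each was taken from non-transfected, cytosolic, nuclear and mitochondrial cells. The non-transfected pull-downs give the background of RNA recovered without the enzyme. These cells also lacked the plasmid and the transfection, so effects of transfection, BS2 expression and labelling cannot be told apart in comparisons with them. The pull-down replicates are labelled biological but no separate cultures are named. A p-value here reflects only how far libraries within groups differ, possibly for technical reasons. That spread is pooled over all groups in a fit and moderated across genes. Leaving out a library of another group can therefore change a call while the estimate stays the same. Expression was transient and the share of cells expressing BS2 is not given in the sources used here.

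Depth ranged from 6.34 to 20.01 M reads per library (M for mega), so 1 read stood for 0.0541 to 0.154 CPM, a read count scaled to the size of the library. Levels are the authors' TMM-normalized CPM (TMM, trimmed mean of M values, a scaling between libraries), and changes are log2 fold changes ± standard error of log2(CPM + 1), tested with limma over all genes. The total of the normalized values was 847391 to 914952 CPM in the nuclear pull-downs and 973767 or more in every other library. The nuclear RNA MALAT1 stood at 1435 to 1849 CPM in the nuclear, 1322 and 1443 in the mitochondrial, 1040.0 and 1176 in the nucleolar, 440 and 491 in the cytosolic and 428 to 564 CPM in the non-transfected pull-downs. Of the markers of other cell types, PTPRC, HBB and CD3E stayed at or below 0.669 CPM and ALB reached 1.94 CPM. COL3A1 stood at 3.29 to 14.7 CPM and COL1A1 at 9.48 to 22.1 CPM. Among the HEK293T markers, VIM stood at 171 CPM or more, NEFM at 90.2 to 274 and KRT18 at 13.9 to 53.8 CPM. LHX1 stood at 9.67 to 23.9, KRT8 at 3.54 to 12.7 and PAX2 at 3.15 to 5.99 CPM, PAX2 below COL1A1 in every library. In such bulk libraries, fewer cells of a type and less RNA per cell cannot be told apart.

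Per kilobase of transcript, the levels spanned a wide range. In the non-transfected pull-downs NPM1 led at 2449 ± 76.4 CPM per kb (SD, n = 3), followed by NCL at 467 ± 30.1, FBL at 284 ± 26.4 and NHP2 at 245 ± 27.0 CPM per kb. NOP56 (127 ± 9.66), NOP58 (125 ± 6.23), NOP10 (114 ± 9.76), DKC1 (102 ± 6.99) and SNU13 (93.0 ± 15.5 CPM per kb) came next, the mean ± SD of each overlapping that of its neighbour among these 5, and GAR1 was last at 38.2 ± 3.12 CPM per kb. In the nucleolar pull-downs NOP58 followed NPM1 and NCL, at 400.2 ± 8.60 CPM per kb (SD, n = 2), ahead of NOP56 at 179 ± 7.64 and FBL at 123 ± 5.75 CPM per kb. SNU13 was the lowest there, at 38.2 ± 1.27 CPM per kb. Replicates of 1 gene in 1 group lay close together, with coefficients of variation from 0.176% to 19.4% over the 50 combinations of gene and pull-down group.

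**Figure D1:**
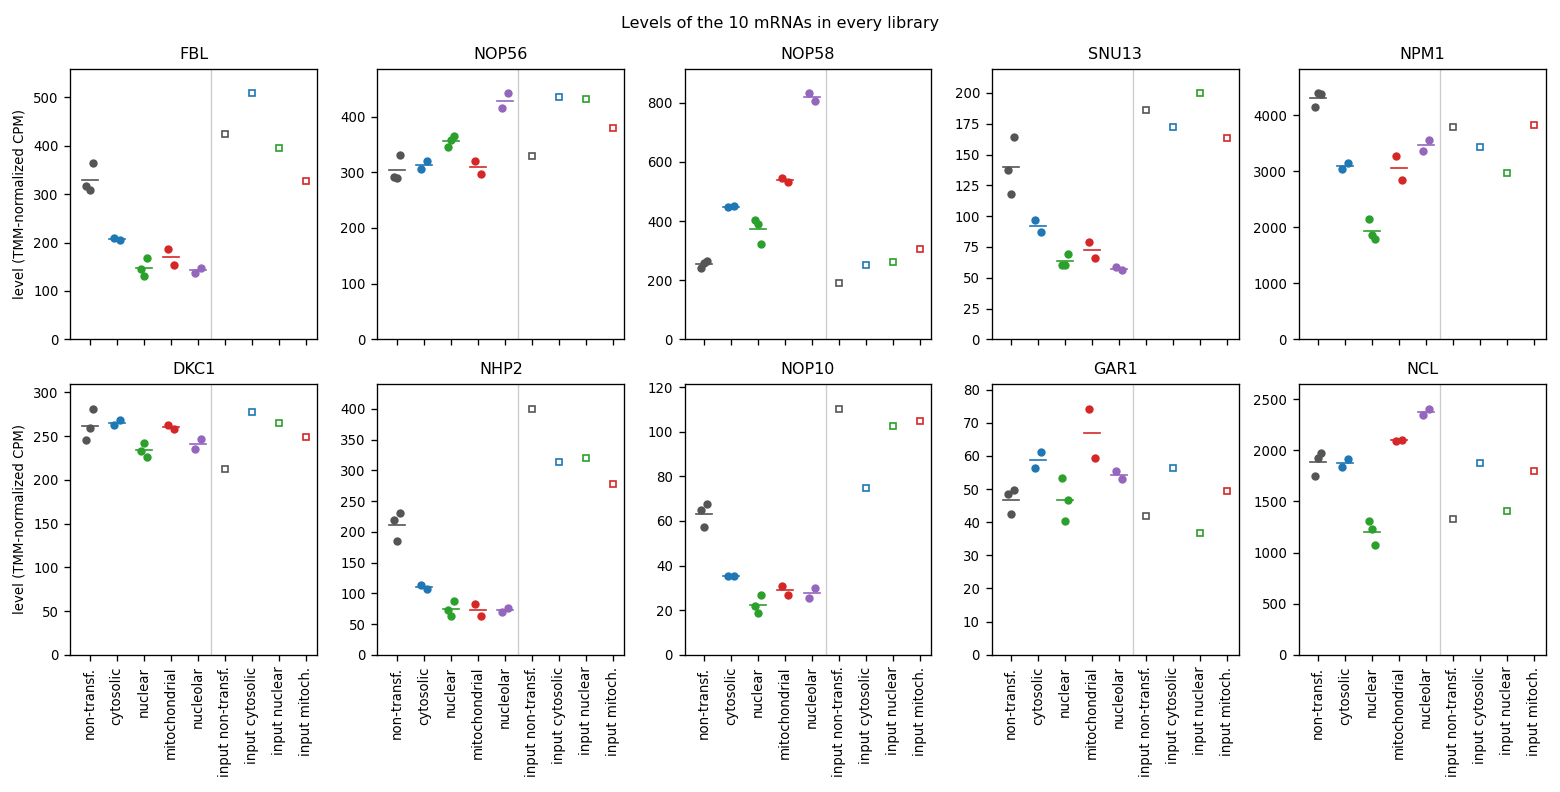
Level of each of the 10 mRNAs in TMM-normalized CPM (linear axes from 0) in every library, with filled circles for pull-downs, open squares for the single inputs and short lines for group means. NOP58 reaches 806 and 831 CPM in the nucleolar pull-downs against 241 to 265 CPM in the non-transfected ones, while NHP2 falls from 186 to 231 CPM to 62.9 to 113 CPM in the pull-downs of all transfected cells.

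The 4 box C/D mRNAs moved in opposite directions when BS2 was present. NOP58 stood at 241, 259 and 265 CPM in the non-transfected pull-downs, at 446 and 451 CPM in the cytosolic and at 402, 388 and 324 CPM in the nuclear ones. It reached 545 and 532 CPM in the mitochondrial and 831 and 806 CPM in the nucleolar pull-downs. All 9 pull-downs of transfected cells lay above all 3 non-transfected ones, and the 2 nucleolar libraries lay above every other. The rise was 1.68 ± 0.091 with nucleolar BS2, a 3.21-fold change (limma adjusted p = 6.1e-10), 1.08 ± 0.091 with mitochondrial (1.8e-07), 0.82 ± 0.091 with cytosolic (3.78e-06) and 0.54 ± 0.0814 with nuclear BS2 (limma adjusted p = 3.35e-05). The input of non-transfected cells held 189.5 CPM of NOP58 and those of cytosolic, nuclear and mitochondrial BS2 cells 252, 263 and 307 CPM, so the level was also higher in each transfected input than in the non-transfected one.

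NOP56, the other scaffold protein, moved less. Its level was 291, 289 and 330.4 CPM in the non-transfected, 305 and 321 CPM in the cytosolic and 320.2 and 297 CPM in the mitochondrial pull-downs, which overlapped. It was 345, 359 and 364 CPM in the nuclear and 416 and 442 CPM in the nucleolar pull-downs, all above the highest non-transfected library. NOP56 rose by 0.50 ± 0.0814 with nucleolar BS2 (limma adjusted p = 6.92e-05) and by 0.23 ± 0.0728 with nuclear BS2 (limma adjusted p = 0.0111). The nuclear call was lost without non-transfected replicate 1 (0.20, limma adjusted p = 0.05) or replicate 2 (0.20, limma adjusted p = 0.0545). The cytosolic and mitochondrial values, 0.046 ± 0.0814 and 0.025 ± 0.0814, did not pass the test.

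FBL, the methyltransferase, went down. It stood at 317, 308 and 365 CPM in the non-transfected pull-downs and at 209 and 205 CPM in the cytosolic ones. The nuclear libraries held 145, 131 and 168 CPM, the mitochondrial 187 and 155 CPM and the nucleolar 138 and 147 CPM. No pull-down of transfected cells reached the lowest non-transfected library. FBL fell by 1.20 ± 0.11 with nucleolar (limma adjusted p = 1.87e-07), 1.15 ± 0.0988 with nuclear (9.31e-08), 0.95 ± 0.11 with mitochondrial (4.25e-06) and 0.67 ± 0.11 with cytosolic BS2 (limma adjusted p = 0.000149).

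SNU13, which binds the guide RNA first, showed a profile close to that of FBL. It was at 138, 118 and 164 CPM in the non-transfected, 96.6 and 87.3 CPM in the cytosolic, and 60.6, 60.1 and 69.2 CPM in the nuclear pull-downs. The mitochondrial libraries held 79.0 and 65.9 CPM and the nucleolar 58.7 and 56.0 CPM, again without overlap with the non-transfected ones. The falls were 1.26 ± 0.125 with nucleolar BS2 (limma adjusted p = 4.37e-07), 1.12 ± 0.112 with nuclear (4.61e-07), 0.93 ± 0.125 with mitochondrial (1.71e-05) and 0.59 ± 0.125 with cytosolic BS2 (limma adjusted p = 0.00114).

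Among the box H/ACA mRNAs, NHP2 and NOP10 fell and DKC1 and GAR1 did not. NHP2 stood at 219, 186 and 231 CPM in the non-transfected pull-downs and at 113 and 107 CPM in the cytosolic ones. Its level was 73.4, 63.5 and 87.9 CPM in the nuclear, 83.0 and 62.9 CPM in the mitochondrial and 70.3 and 76.1 CPM in the nucleolar libraries. The groups with nuclear, mitochondrial and nucleolar BS2 overlapped one another, and all lay below the cytosolic and the non-transfected group. The changes were -1.53 ± 0.137 with mitochondrial (limma adjusted p = 3.23e-07), -1.52 ± 0.137 with nucleolar (1.58e-07), -1.49 ± 0.123 with nuclear (6.01e-08) and -0.93 ± 0.137 with cytosolic BS2 (limma adjusted p = 5.01e-05). The non-transfected input held 400 CPM of NHP2 and the cytosolic, nuclear and mitochondrial inputs 314, 319 and 278 CPM. NHP2 was thus also lower in each transfected input than in the non-transfected one.

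NOP10, the shortest of the 10 mRNAs, stood at 65.0, 57.3 and 67.7 CPM in the non-transfected and at 35.3 and 35.4 CPM in the cytosolic pull-downs. It held 22.1, 18.6 and 26.6 CPM in the nuclear, 31.0 and 27.0 CPM in the mitochondrial and 25.4 and 30.1 CPM in the nucleolar libraries. Every transfected pull-down lay below every non-transfected one, with the nuclear group lowest on average. NOP10 changed by -1.47 ± 0.122 with nuclear (limma adjusted p = 7.18e-08), -1.16 ± 0.137 with nucleolar (2.57e-06), -1.10 ± 0.137 with mitochondrial (8.29e-06) and -0.82 ± 0.137 with cytosolic BS2 (limma adjusted p = 0.000158). The non-transfected input held 110 CPM of NOP10 and the cytosolic, nuclear and mitochondrial inputs 74.8, 103 and 105 CPM.

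DKC1, the pseudouridine synthase, varied least. It ranged from 246 to 281 CPM in the non-transfected, 263 to 268 CPM in the cytosolic, 227 to 243 CPM in the nuclear, 258 to 262 CPM in the mitochondrial and 235 to 247 CPM in the nucleolar pull-downs. Only the nuclear libraries all lay below the non-transfected ones. None of the 4 changes passed the test, the largest being -0.16 ± 0.0695 with nuclear BS2 (limma adjusted p = 0.0524, and -0.21 with limma adjusted p = 0.034 without non-transfected replicate 1). That value was 0.12 when all libraries were scaled to a common total, so no direction can be given for DKC1. With a length and GC trend removed from each library DKC1 passed at -0.20 with nuclear (limma adjusted p = 0.00276), -0.15 with mitochondrial (0.0384) and -0.24 with nucleolar BS2 (limma adjusted p = 0.002).

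GAR1 stood at 48.4, 42.4 and 49.6 CPM in the non-transfected, 56.3 and 61.3 CPM in the cytosolic and 74.2 and 59.4 CPM in the mitochondrial pull-downs. The nuclear libraries held 53.2, 40.3 and 46.7 CPM, overlapping the non-transfected ones, and the nucleolar 55.4 and 53.0 CPM, above them. GAR1 rose by 0.50 ± 0.125 with mitochondrial BS2 (limma adjusted p = 0.00323) and by 0.33 ± 0.125 with cytosolic BS2 (limma adjusted p = 0.04). The mitochondrial call was lost without mitochondrial replicate 1 (0.34, limma adjusted p = 0.0769). The cytosolic call was lost without non-transfected replicate 1 or 2, either cytosolic or either nucleolar library, at 0.26 to 0.39 with limma adjusted p from 0.0509 to 0.228. It was also lost after quantile normalization (0.19, limma adjusted p = 0.168), under median-of-ratios scaling (0.28, 0.0526) and with no filter on low values. The nuclear and nucleolar values, -0.0078 ± 0.111 and 0.21 ± 0.125, did not pass the test. The nucleolar value passed under a common total (0.29, limma adjusted p = 0.0313), also without mitochondrially encoded genes in it (0.31, 0.0224). It passed under median-of-ratios scaling as well (0.31, limma adjusted p = 0.0243). The nuclear value passed as higher under the same common totals (0.27 and 0.25, limma adjusted p = 0.0264 and 0.0342). Median-of-ratios scaling (0.059) and quantile normalization (0.0049) did not call it.

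NPM1, by far the most abundant of the 10 mRNAs, stood at 4149.9, 4387 and 4378 CPM in the non-transfected pull-downs. The nuclear libraries held 2156, 1866 and 1795 CPM, the cytosolic 3044 and 3143, the mitochondrial 3269 and 2846 and the nucleolar 3355 and 3561 CPM. All transfected pull-downs lay below the non-transfected ones, the nuclear ones below all others. The changes were -1.15 ± 0.0879 with nuclear (limma adjusted p = 2.76e-08), -0.50 ± 0.0983 with mitochondrial (0.000554), -0.48 ± 0.0983 with cytosolic (0.000896) and -0.32 ± 0.0983 with nucleolar BS2 (limma adjusted p = 0.0105). The nucleolar call was lost without nucleolar replicate 1 (-0.27, limma adjusted p = 0.0916). NPM1 has many processed copies in the genome, and how reads shared with them were divided is uncertain.

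NCL did not follow NPM1 in every construct. It was at 1745, 1928 and 1976 CPM in the non-transfected, 1838 and 1915 CPM in the cytosolic and 2094 and 2099 CPM in the mitochondrial pull-downs. The nuclear libraries held 1308, 1229 and 1072 CPM, below all others, and the nucleolar 2349 and 2405 CPM, above all others. NCL rose by 0.34 ± 0.0939 with nucleolar BS2 (limma adjusted p = 0.0052) and fell by 0.65 ± 0.0839 with nuclear BS2 (limma adjusted p = 6.85e-06), a direction that turned to 0.18 (limma adjusted p = 0.0206) after quantile normalization. With cytosolic and mitochondrial BS2 the values were -0.0033 ± 0.0939 and 0.16 ± 0.0939 and did not pass. Both depended on the scaling. The mitochondrial value passed under a common total (0.17, limma adjusted p = 0.0444), also without mitochondrially encoded genes in it (0.24, 0.0104). Quantile normalization gave 0.47 (limma adjusted p = 7.15e-05) with mitochondrial and 0.53 (3.49e-05) with cytosolic BS2. Removing a length and GC trend gave -0.044 and -0.21 in the same order.

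**Figure D2:**
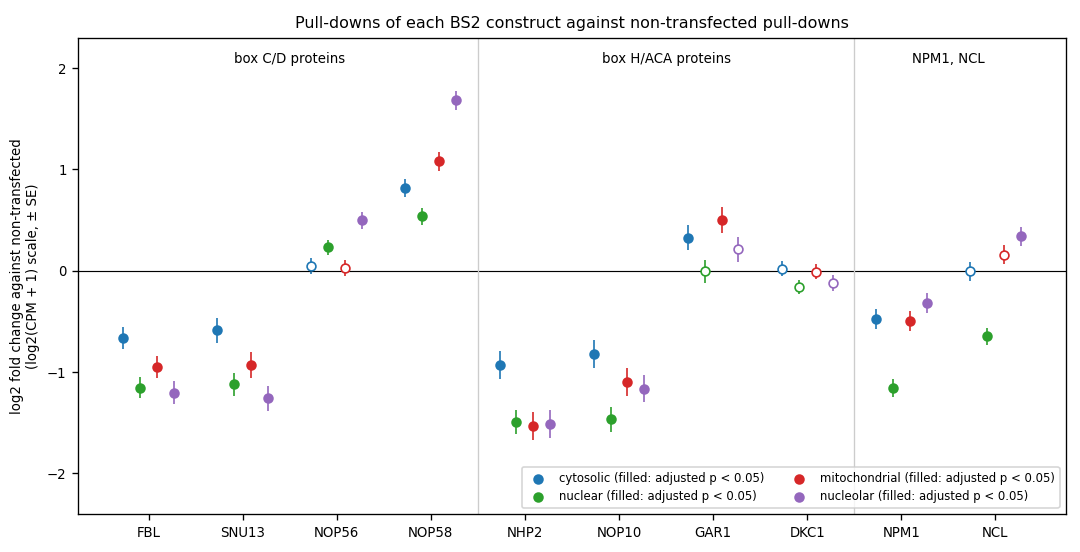
Log2 fold change (± SE, log2(CPM + 1) scale) of each mRNA in the pull-downs of 4 BS2 constructs against the non-transfected pull-downs, with filled points at limma adjusted p under 0.05. NOP58 lies between 0.54 and 1.68 and NHP2 between -1.53 and -0.93; the NCL value for nuclear BS2, -0.65, was 0.18 after quantile normalization.

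Counted against all genes, 2 of the 10 mRNAs were higher and 5 lower with cytosolic BS2, where 28.9% of the 16133 tested genes were called higher and 22.4% lower (limma). With nuclear BS2 2 were higher and 6 lower, against 32.2% higher and 34.2% lower of all genes. The counts were 2 higher and 5 lower with mitochondrial (all genes 28.9% and 27.0%) and 3 higher and 5 lower with nucleolar BS2 (all genes 30.1% and 35.6%). The counts of risen members were thus close to the background share in each comparison. The median change of the 10 members was -0.24, -0.89, -0.25 and -0.22 with cytosolic, nuclear, mitochondrial and nucleolar BS2, beside 0.021, -0.030, 0.00052 and -0.076 for all genes. The 4 comparisons use the same 3 non-transfected libraries, so they are not independent of one another. Scaling to a common total moved the median of all genes in the nuclear comparison by 0.24, from -0.030 to 0.21, and the calls from 5194 higher and 5511 lower to 7178 and 3660, while 6 members were still called lower.

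The 6 mRNAs without a snoRNA and the 4 hosts separated in this respect. Of the 6 without, 5 were called lower in each comparison with non-transfected cells, GAR1 being the one that was not, and their median changes were -0.63 (cytosolic), -1.15 (nuclear), -0.94 (mitochondrial) and -1.18 (nucleolar BS2). The 4 hosts had medians of 0.034, 0.035, 0.091 and 0.42 in the same order, with NCL under nuclear BS2 the one host called lower. This grouping was looked at after the values were known and carries no test. It also goes with length: NOP10 (554 nt), NHP2 (865 nt), FBL (1160 nt), SNU13 (1503 nt) and NPM1 (1758 nt) are shorter than NOP58 (2046 nt), NOP56 (2400 nt), DKC1 (2577 nt) and NCL (4034 nt), and GAR1 (1224 nt) is again the exception.

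Across the 10 members, Spearman's rho between transcript length and change was 0.65 (cytosolic, nuclear) and 0.68 (mitochondrial, nucleolar), and across the 15959 tested genes with an annotated length it was 0.26, 0.14, 0.22 and 0.079 for cytosolic, nuclear, mitochondrial and nucleolar BS2. In the same order, rho with GC content was -0.65, -0.43, -0.71 and -0.61 across the members. Across the 15959 genes it was -0.17, 0.025, -0.29 and -0.12. Points within a comparison share libraries, and the values are descriptive. With a length and GC trend removed from each library, the nucleolar changes were 1.57 for NOP58, -0.96 for FBL, -1.14 for SNU13, -1.27 for NHP2 and -1.08 for NOP10, all still past the test. In the cytosolic comparison the same correction gave 0.73 for NOP58, -0.42 for FBL, -0.47 for SNU13, -0.65 for NHP2 and -0.59 for NOP10. GAR1, at 0.45 (limma adjusted p = 0.000557) with cytosolic BS2, then stood further from the non-transfected level than without the correction, and passed at 0.20 (0.0357) with nuclear and 0.32 (limma adjusted p = 0.00582) with nucleolar BS2. NCL passed at -0.21 (limma adjusted p = 0.0127) with cytosolic BS2.

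**Figure D3:**
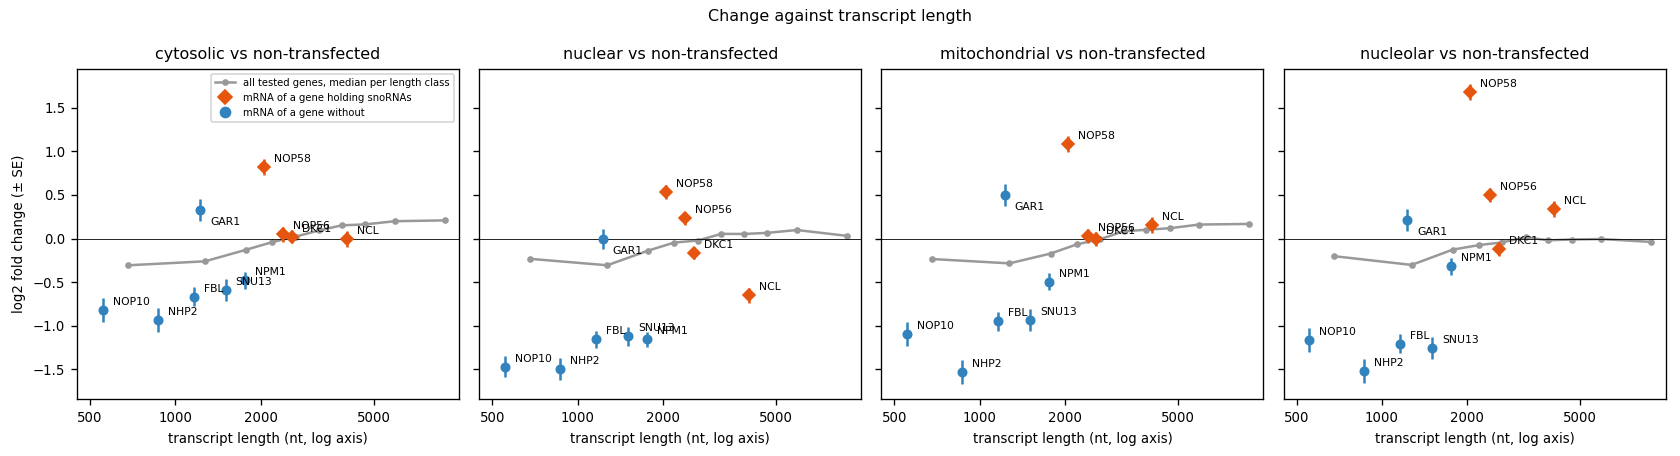
Log2 fold change (± SE) of the 10 mRNAs against the length of the principal transcript (log axis), with diamonds for the 4 snoRNA hosts, circles for the other 6 and a grey line for the median of all tested genes in each of 10 length classes. The 5 mRNAs from NOP10 (554 nt) to NPM1 (1758 nt) other than GAR1 lie below the grey line in all 4 panels, and NOP58 (2046 nt) lies above it.

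The start of an mRNA can carry a terminal oligopyrimidine tract, a C followed by pyrimidines at the first base, known from mRNAs of the translation machinery. In the RefSeq promoter windows (GRCh38.p14, 250 bases before to 50 after the start), a C and 4 further pyrimidines from the first base were found in 4.07% of 35116 windows. Of the 8 members with a listed start, FBL and NPM1 held it, NPM1 at 1 of 2 starts. The first 20 bases are shown for these and, for comparison, for the host NCL and for NHP2, which had the deepest fall. Capitals mark the pyrimidine run from the first base.
FBL, chr19:39846330-39846629, minus strand: CTTTTCCacgtgcgaaagcc
NPM1, chr5:171387599-171387898, plus strand: CTTTCCCTggtgtgattccg
NCL, chr2:231464435-231464734, minus strand: agtctcgagctctcgctggc
NHP2, chr5:178153836-178154135, minus strand: aagtgatgcctaaagctgtg
The coordinates give the whole window of 300 bases. NHP2 and NOP10, which also fell, did not hold these letters at the listed start. The letters CACGTG, the E-box bound by MYC, which reads the same on both strands, occurred in 7.26% of all windows. They were found once at FBL, once at the second listed start of GAR1 and at 2 places at NOP10, shown here with its neighbours and the E-box in capitals.
NOP10, chr15:34343087-34343386, minus strand: gaaattgacgaaCACGTGacgcg
A match of letters is a description of the sequence and no evidence of binding.

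Constructs were also compared with each other. Between the nuclear and the cytosolic pull-downs, 7 of the 10 mRNAs were lower with nuclear BS2 (all genes 23.2%) and 0 higher (all genes 10.2%; 1 at an unadjusted limma p under 0.05). NPM1 differed by -0.68 ± 0.0983 (limma adjusted p = 0.000235), NCL by -0.65 ± 0.0939 (0.000238), NOP10 by -0.65 ± 0.137 (0.00268), NHP2 by -0.56 ± 0.137 (0.00635), SNU13 by -0.53 ± 0.125 (0.00494), FBL by -0.49 ± 0.11 (0.00406) and NOP58 by -0.28 ± 0.091 (limma adjusted p = 0.028). Under a common total 3 members were lower and 1, NOP56 (0.43, limma adjusted p = 0.000666), higher, and the split over all genes went from 1640 higher and 3747 lower to 3012 and 936; NOP58 was then at -0.033, and at 0.076 after quantile normalization. Leaving out cytosolic replicate 1 ended the calls of NHP2 (-0.52, limma adjusted p = 0.0601), SNU13 (-0.46, 0.0662) and NOP58 (-0.29, 0.122), and NOP58 was also lost without cytosolic replicate 2 (-0.27) or nuclear replicate 3 (-0.18). GAR1, at -0.33 ± 0.125 (limma adjusted p = 0.0515), passed at -0.43 without nuclear replicate 1 and at -0.33 without either mitochondrial library or non-transfected replicate 2. Over all genes, 883 were higher and 1873 lower without cytosolic replicate 1, and 803 and 1466 without replicate 2.

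A second comparison set nucleolar against nuclear targeting. NOP58, NCL, NPM1 and NOP56 were higher with nucleolar BS2 (4 of 10, all genes 16.6%), and 0 were lower (all genes 17.9%; also 0 at an unadjusted limma p under 0.05). The differences were 1.14 ± 0.091 for NOP58 (limma adjusted p = 4.91e-07), 0.99 ± 0.0939 for NCL (2.43e-06), 0.84 ± 0.0983 for NPM1 (1.7e-05) and 0.27 ± 0.0814 for NOP56 (limma adjusted p = 0.0195). After quantile normalization NPM1 stood at -0.055 and NOP56 at -0.0024, and NOP56 was at 0.068 under a common total, which moved the split over all genes from 2679 higher and 2888 lower to 1700 and 5549. The NOP56 call was lost without nucleolar replicate 1 (0.31, limma adjusted p = 0.0518) or 2 (0.22, 0.162), and NOP10, at 0.31 ± 0.137 (0.0987), passed without nuclear replicate 3 (0.43, limma adjusted p = 0.0142). Over all genes, 1688 were higher and 1987 lower without nucleolar replicate 1, and 1789 and 1465 without replicate 2. FBL, SNU13 and NHP2 differed by -0.050 ± 0.11, -0.14 ± 0.125 and -0.023 ± 0.137 and did not pass.

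Against cytosolic BS2, the nucleolar pull-downs held more NOP58 (0.87 ± 0.0996, limma adjusted p = 2.53e-05), NOP56 (0.45 ± 0.0891, 0.00136) and NCL (0.34 ± 0.103, limma adjusted p = 0.0182). They held less SNU13 (-0.67 ± 0.137, limma adjusted p = 0.00174), NHP2 (-0.58 ± 0.15, 0.00767) and FBL (-0.54 ± 0.121, limma adjusted p = 0.00329). These 3 higher and 3 lower of 10 stand beside 11.2% and 23.9% of all genes. NCL was at -0.074 after quantile normalization and lost its call without either cytosolic or either nucleolar library (0.31 to 0.37, limma adjusted p from 0.0635 to 0.123). NPM1, at 0.16 ± 0.108, did not pass (limma adjusted p = 0.271) but depended on the scaling. It was called higher under a common total (0.21, limma adjusted p = 0.0466), also without mitochondrially encoded genes in it (0.24, 0.0242). Median-of-ratios scaling also called it higher (0.32, limma adjusted p = 0.0235), whereas quantile normalization called it lower (-0.42, limma adjusted p = 0.000839). NHP2 lost its call without cytosolic replicate 1 (-0.55, 0.0584) or nucleolar replicate 1 (-0.53, limma adjusted p = 0.0569), and NOP10, at -0.34 ± 0.15, passed without nuclear replicate 3. Median-of-ratios scaling turned the split over all genes from 1802 higher and 3852 lower to 2776 and 2297. These counts were 1022 and 2244 without cytosolic replicate 1, 1086 and 2262 without cytosolic replicate 2, 1186 and 2969 without nucleolar replicate 1 and 989 and 1970 without nucleolar replicate 2. Between mitochondrial and cytosolic BS2, limma called 0 of the 10 in either direction (all genes 0.632% higher and 0.198% lower), and 4 had an unadjusted p under 0.05.

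The pull-downs were also compared with the inputs, with non-transfected and transfected cells in a single fit. Sorting by the pull-down itself and effects of BS2 labelling cannot be told apart in these values. Over the 4 constructs with an input, pull-downs held less NHP2 (-1.61 ± 0.149, limma adjusted p = 4.89e-07), NOP10 (-1.46 ± 0.166, 2.02e-06), SNU13 (-1.04 ± 0.143, 1.16e-05) and FBL (-0.997 ± 0.131, limma adjusted p = 7.38e-06) than the inputs. NOP56 was lower by 0.28 ± 0.0716 (limma adjusted p = 0.00243), a direction that turned to 0.047 once a length and GC trend was removed. NOP58 was higher (0.63 ± 0.0834, limma adjusted p = 8.01e-06), as was GAR1 (0.24 ± 0.0924, limma adjusted p = 0.0311). That is 2 higher and 5 lower of 10, beside 36.5% and 29.3% of the 16510 genes tested with the inputs. The GAR1 call was lost without the mitochondrial input (0.19), the nuclear input (0.21) or mitochondrial replicate 1 (0.20), at limma adjusted p from 0.063 to 0.141. NCL passed without the nuclear input (0.25, 0.0336) and NPM1 without the non-transfected input (-0.37, limma adjusted p = 0.00834). NPM1 also passed under a common total (-0.25, limma adjusted p = 0.026), with or without mitochondrially encoded genes in it. It passed too under median-of-ratios scaling (-0.30, 0.0239) and with a length and GC trend removed (-0.39, limma adjusted p = 0.00764). NCL passed after quantile normalization (0.48, limma adjusted p = 9.98e-06) but stood at -0.17 with the trend removed.

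In cells without the enzyme NHP2, NOP10, SNU13 and FBL were also the lowest 4, in the same order. NHP2, at a mean of 212 CPM in the 3 non-transfected pull-downs, differed from the input of the same cells by -0.92 on the log2 scale, with NOP10 at -0.79, SNU13 at -0.42 and FBL at -0.36. NCL and NOP58 were at 0.51 and 0.42 there. With nuclear BS2 the differences from the matching input were -2.16 for NOP10, -2.09 for NHP2, -1.65 for SNU13 and -1.42 for FBL. Each input is a single library and these differences carry no replicate check on that side. Over all 16317 genes with an annotated length, Spearman's rho of the change from input to pull-down was 0.40 with length and -0.67 with GC content; with that trend removed NHP2 was at -0.96, NOP10 at -1.25, SNU13 at -0.79 and FBL at -0.36, each past the test.

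**Figure D4:**
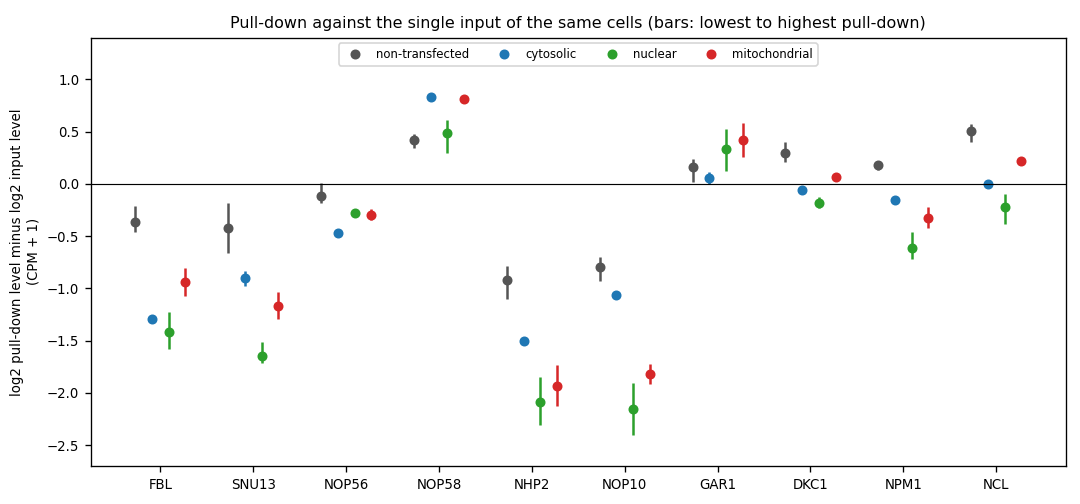
Log2 difference between the mean pull-down level and the single input level of the same cells for each mRNA (CPM + 1), with bars from the lowest to the highest pull-down. For NHP2 the non-transfected cells lie at -0.92 and the nuclear BS2 cells at -2.09, whereas for NOP58 the 4 kinds of cells lie between 0.42 and 0.83.

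Subtracting the input difference from the pull-down difference asks whether recovery by pull-down changed beyond the level in the cell. With nuclear BS2, 7 of the 10 mRNAs were lower (all genes 7.86%) and 0 higher (all genes 6.62%; also 0 at an unadjusted limma p under 0.05). NOP10 led at -1.37 ± 0.239 (limma adjusted p = 0.00377), followed by SNU13 at -1.22 ± 0.233 (limma adjusted p = 0.00595). With cytosolic BS2 only FBL was lower (all genes 2.13%), at -0.93 ± 0.212 (limma adjusted p = 0.0267), and with mitochondrial BS2 NHP2 and NOP10 were (2 of 10, all genes 2.62%). None was higher with either (all genes 4.17% and 4.92%), with 1 each, NOP58, at an unadjusted limma p under 0.05. NOP58, whose input level also rose, was at 0.41 ± 0.175 with cytosolic, 0.068 ± 0.17 with nuclear and 0.39 ± 0.175 with mitochondrial BS2 (limma adjusted p = 0.168, 0.821 and 0.184). The fit takes the spread of the single inputs from that of the pull-downs. The FBL call was lost without either cytosolic library (-0.94 and -0.91, limma adjusted p = 0.077 and 0.0951), those of NHP2 and NOP10 without non-transfected replicate 1 or 3, either cytosolic library or mitochondrial replicate 2 (-0.81 to -1.03, limma adjusted p from 0.054 to 0.104). The nuclear call of DKC1 (-0.48 ± 0.142, 0.0399) was lost without non-transfected replicate 2 or 3, either cytosolic library, nuclear replicate 2 or either mitochondrial library (-0.43 to -0.51, limma adjusted p from 0.0524 to 0.0746). After quantile normalization the nuclear values of NPM1, NCL and DKC1 were -0.16, -0.050 and -0.26 and did not pass (limma adjusted p = 0.445, 0.832 and 0.169), against -0.80, -0.73 and -0.48 without it, and with no filter on low values NPM1 was also lost (0.0545). Other calls appeared when nuclear replicate 3 was left out. With cytosolic BS2 these were NOP58 (0.41, limma adjusted p = 0.037) and NCL (-0.50, 0.0358), and with mitochondrial BS2 NOP58 (0.39, limma adjusted p = 0.0453), SNU13 (-0.74, 0.0469) and FBL (-0.58, 0.0467). SNU13 with mitochondrial BS2 was also called without non-transfected replicate 2 (-0.86, limma adjusted p = 0.0425).

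Ratios of 2 mRNAs within 1 library do not depend on a single scaling factor per library, apart from the added 1 CPM. Quantile normalization or removal of a length and GC trend can change them. These pairs were chosen after the values were seen and carry no test. The log2 ratio of NOP58 to NOP56, partners in the same particle, was -0.25 ± 0.081 (SD, n = 3) without BS2 and 0.054 ± 0.20 (SD, n = 3) with nuclear BS2. It was 0.52 ± 0.039 with cytosolic, 0.80 ± 0.051 with mitochondrial and 0.93 ± 0.093 with nucleolar BS2 (SD, n = 2 each). The 4 inputs lay between -0.79 and -0.30, and 1 pull-down, a non-transfected one at -0.32, was below the highest of them. NOP58 over FBL went from -0.37 ± 0.11 (SD, n = 3) in the non-transfected to 2.52 ± 0.098 (SD, n = 2) in the nucleolar pull-downs, the widest shift of the 5 pairs. The inputs of this pair also differed, from -1.16 in non-transfected to -0.094 in mitochondrial BS2 cells.

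GAR1 over NOP10, both of which bind DKC1, was -0.43 ± 0.013 (SD, n = 3) in the non-transfected pull-downs and between 0.66 and 1.23 in the 9 pull-downs of transfected cells. Its non-transfected and cytosolic inputs also differed, at -1.38 and -0.40, with the nuclear input at -1.46 and the mitochondrial at -1.07. NCL over NPM1 rose from -1.19 ± 0.051 (SD, n = 3) to between -0.74 and -0.44 in those 9 libraries, but the non-transfected and cytosolic inputs also differed, at -1.52 and -0.87. NHP2 over SNU13, both of the same RNA-binding protein family, moved the other way, from 0.60 ± 0.097 (SD, n = 3) to between -0.067 and 0.43. Its inputs moved in that direction too, from 1.098 in non-transfected to 0.86 in cytosolic, 0.67 in nuclear and 0.76 in mitochondrial BS2 cells. The nuclear pull-downs, which stood lowest for NCL and NPM1 singly, were not the extreme group in the ratio of the pair, at -0.69 ± 0.076 (SD, n = 3).

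**Figure D5:**
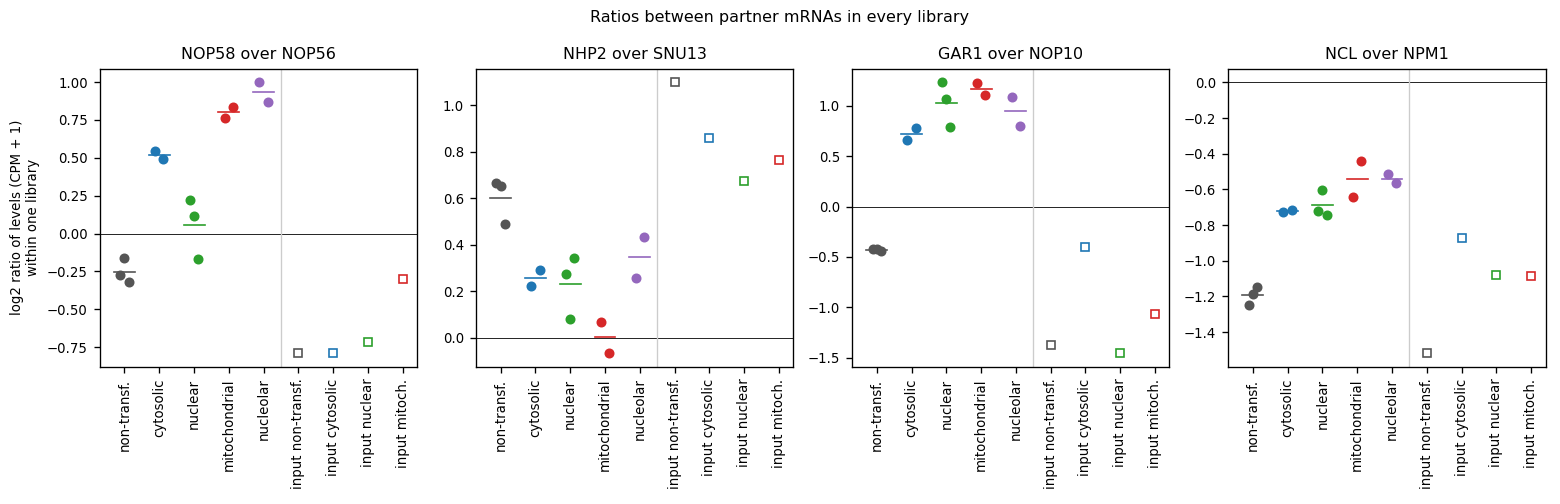
Log2 ratio of the levels (CPM + 1) of 4 pairs of mRNAs within each library, with filled circles for pull-downs, open squares for inputs and short lines for group means. In the NOP58 over NOP56 panel the nucleolar pull-downs average 0.93 and the non-transfected ones -0.25; in the GAR1 over NOP10 panel all transfected pull-downs lie at 0.66 or above and all others at or below -0.40.

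Over the 12 pull-downs FBL and SNU13 had the most alike profiles among the members (Pearson's r = 0.986), followed by NHP2 with FBL (0.982) and NOP10 with FBL (0.974). NOP58 was nearest to NOP56 (r = 0.659) and least like SNU13 (-0.751), and NCL was nearest to NPM1 (0.792). The genes whose profile was most like the mean of the 10 members, of 11706 candidates, were UBE2L3 (0.988), BTF3 (0.985), ARPC2 (0.984), MRPL22 (0.983) and YWHAE (0.981). All these values share the same libraries and their scaling and are descriptive.

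A further 17 mRNAs encode factors that assemble, mature or carry snoRNPs, among them the R2TP and box C/D assembly factors NUFIP1, RPAP3 and RUVBL2 and the H/ACA chaperone NAF1. Against non-transfected pull-downs, limma called 11 of 17 higher and 1 lower with cytosolic (all genes 28.9% and 22.4%), 6 and 3 with nuclear (32.2% and 34.2%), 9 and 1 with mitochondrial (28.9% and 27.0%) and 10 and 1 with nucleolar BS2 (30.1% and 35.6%). Their median changes were 0.41, 0.20, 0.29 and 0.34, beside medians of -0.24, -0.89, -0.25 and -0.22 for the 10 core mRNAs. NUFIP1 rose by 1.37 ± 0.13 with nucleolar BS2 (limma adjusted p = 2.51e-07) and NAF1 by 1.17 ± 0.107 (1.88e-07), while RUVBL2, an ATPase of the R2TP complex, changed by -0.58 ± 0.142 (limma adjusted p = 0.00223). Between nucleolar and nuclear BS2, 9 of the 17 were higher and 0 lower (all genes 16.6% and 17.9%), and between nuclear and cytosolic BS2 7 were lower and 0 higher (all genes 23.2% and 10.2%). The last of these depended on the scaling: with a common total 2 were lower and 1 higher, with median-of-ratios scaling 3 and 1, and with quantile scaling 2 and 1. With nuclear against non-transfected pull-downs a common total gave 11 higher and 1 lower.

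The levels of close relatives of the members were also listed, and reads shared with them were not examined. No copy named by a member symbol followed by P and digits carried values. NPM3, a small paralogue of NPM1, stood at 66.9 to 80.9 CPM in the non-transfected pull-downs and at 24.2 to 41.4 CPM in those of transfected cells, without overlap. NPM2 and FBLL1, the other paralogues, reached at most 1.12 and 3.54 CPM in any library, small beside NPM1 and FBL.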

How the data were processed

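Per the labels, the deposited table holds filtered, TMM-normalized CPM on a log2 scale. The submitters' processing notes name STAR 2.7.9a, Salmon 1.4.0, limma and GRCh38, with no role or order. Of 39823 entries 14906 had no value, and 39 repeated names were merged, leaving 24878 genes. The lowest value was the same in every library, 0.166 on the linear scale. This constant was subtracted after raising 2 to each deposited value to obtain CPM. Values were whole multiples of 1 read (tolerance 0.01) in 68.6% to 84.2% of cases, too few for a count test.

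The pull-down fit held 12 libraries and the fit with inputs 14, without the nucleolar pull-downs. Genes entered when 2 or more libraries reached 1 CPM. Values were modelled on the log2(CPM + 1) scale in R 4.3.3 using limma 3.58.1 with a mean-variance trend, and p-values were adjusted over all genes tested by Benjamini-Hochberg, with 0.05 as threshold. The fits were tested on simulated data. Lengths and coordinates come from GENCODE 29, matched for 96.7% of genes. Libraries were not paired by replicate number in the main fits. The 10 members are always named, as are up to 2 highest and 2 lowest called assembly factors per comparison. Members and lists were chosen with earlier results of these data known. Alternatives changed scaling, pseudocount, filter, the libraries fitted and a length and GC trend.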

Additional observations from a re-analysis of the deposited data

Results flagged for a closer look

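In 10 cases the difference between pull-down and input changed with a construct, by limma's test of the pull-down and input differences together, relative to non-transfected cells. With nuclear BS2 these were NOP10 (-1.37 ± 0.239, limma adjusted p = 0.00377), SNU13 (-1.22 ± 0.233, 0.00595), NHP2 (-1.17 ± 0.256, 0.011), FBL (-1.05 ± 0.206, 0.00666), NPM1 (-0.80 ± 0.183, 0.0136), NCL (-0.73 ± 0.175, 0.0165) and DKC1 (-0.48 ± 0.142, limma adjusted p = 0.0399). With cytosolic BS2 it was FBL (-0.93 ± 0.212, limma adjusted p = 0.0267). With mitochondrial BS2 they were NOP10 (-1.03 ± 0.247, 0.0307) and NHP2 (-1.01 ± 0.264, limma adjusted p = 0.0393). Each rests on 1 input library per construct. No group held 4 or more libraries, so single libraries were not screened as outliers.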

How the results depend on the processing

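Of the alternative values for members called in a comparison, 1347 stayed past the threshold in the same direction, 79 kept the direction without passing and 6 changed sign; the cause was not tested. The 6 were NCL for nuclear BS2 against non-transfected (0.18), NOP58 for nuclear against cytosolic (0.076), NOP56 (-0.0024) and NPM1 (-0.055) for nucleolar against nuclear and NCL for nucleolar against cytosolic (-0.074), all under quantile normalization, and NOP56 for pull-down against input (0.047) with a length and GC trend removed. Members that did not pass the test in the main fits, some of which passed after the change, changed sign more often. Under a common total these were, against non-transfected, NCL with cytosolic (0.030), GAR1 (0.27) and DKC1 (0.12) with nuclear and DKC1 with mitochondrial BS2 (0.0080), DKC1 for nuclear against cytosolic (0.063) and nucleolar against nuclear (-0.15), and NOP56 for nuclear BS2 after input correction (0.034). Without mitochondrially encoded genes in that total the same values were 0.013, 0.25, 0.10, 0.072, 0.063, -0.12 and 0.0062. Median-of-ratios scaling gave NOP56 (-0.0028) and DKC1 (-0.028) with cytosolic and GAR1 (0.059) with nuclear BS2 against non-transfected, NHP2 for nucleolar against nuclear (0.015), GAR1 (0.037) and DKC1 (0.015) for nucleolar against cytosolic and DKC1 for pull-down against input (-0.041). Quantile normalization gave NCL (0.53) and DKC1 (-0.035) with cytosolic, GAR1 (0.0049) and DKC1 (0.092) with nuclear BS2 against non-transfected, DKC1 for nuclear against cytosolic (0.13) and nucleolar against nuclear (-0.17), GAR1 (0.045) and NPM1 (-0.42) for nucleolar against cytosolic, DKC1 for pull-down against input (-0.052) and NOP56 for nuclear BS2 after input correction (0.15). Removing a length and GC trend gave DKC1 with cytosolic (-0.095), GAR1 with nuclear (0.20) and NCL with mitochondrial BS2 (-0.044) against non-transfected, FBL (0.033), DKC1 (-0.035) and NHP2 (0.033) for nucleolar against nuclear, and NCL (-0.17) and DKC1 (-0.10) for pull-down against input.

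With replicate numbers as a block, which 21 correlations of same-numbered libraries (-0.17 to 0.16, 3 above 0.1) gave no ground for, DKC1 with mitochondrial BS2 was at 0.0069 and FBL and NHP2 for nucleolar against nuclear at 0.033 and 0.070. The codes in the labels of the cytosolic pull-downs are numbered differently from their replicates, and pairing by those codes was not tested. The block called 1 member lower for mitochondrial against cytosolic BS2 where 0 were called without it, and moved no other count of members by over 1.5 times. Leaving out 1 library at a time gave, against non-transfected, DKC1 at -0.024 to 0.074 and NCL at -0.057 to 0.032 with cytosolic, GAR1 at -0.10 to 0.093 with nuclear, and NOP56 at -0.028 to 0.088 and DKC1 at -0.053 to 0.044 with mitochondrial BS2. For nucleolar against nuclear BS2 it gave FBL at -0.13 to 0.042 and NHP2 at -0.13 to 0.097, and for pull-down against input NCL at -0.0099 to 0.25 and DKC1 at -0.066 to 0.11. The inputs were added to those left out after seeing the data.

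Counts of members called higher fell from 2 to 1 with no filter (cytosolic against non-transfected) and under median-of-ratios scaling (the same and pull-down against input). For nuclear against cytosolic BS2, 1 was higher in place of 0 under both common totals, median-of-ratios and quantile scaling, and 3 were lower in place of 7 under both common totals and quantile scaling. For mitochondrial against cytosolic BS2, 1 was lower under quantile scaling and after removal of the trend, and for nucleolar against nuclear 1 was lower under a common total. After input correction, members called lower with cytosolic BS2 went from 1 to 0 with no filter, 2 under both common totals and 4 with the trend removed, with mitochondrial BS2 from 2 to 1 with no filter, 4 under both common totals and quantile scaling and 6 with the trend removed, and with nuclear BS2 from 7 to 4 under quantile scaling. Leaving out 1 library gave 1 to 2 higher for cytosolic, nuclear and mitochondrial BS2 against non-transfected and for pull-down against input, 0 to 1 higher for mitochondrial against cytosolic and for cytosolic and mitochondrial BS2 after input correction, 4 to 8 lower for nuclear against cytosolic, 0 to 1 lower for mitochondrial against cytosolic, and 0 to 2 and 0 to 4 lower for cytosolic and mitochondrial BS2 after input correction.

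Over all genes, mitochondrial against cytosolic BS2 gave 102 higher and 32 lower, 238 and 341 with the trend removed, 166 and 313 with the block, 105 and 58 under a common total, 85 and 71 with only those groups fitted, and 35 to 221 and 4 to 466 with 1 library left out. Nuclear against cytosolic BS2 gave 2114 and 2189 under median-of-ratios scaling, 1788 and 1708 under quantile scaling and 2304 lower with only those groups fitted, and nucleolar against cytosolic 2329 and 2629 under quantile scaling and 2817 higher with the trend removed. With mitochondrially encoded genes left out of the common total, the splits were 7041 and 3771 for nuclear against non-transfected, 3005 and 943 for nuclear against cytosolic, 1864 and 5053 for nucleolar against nuclear and 2331 and 3045 for nucleolar against cytosolic. After input correction nuclear BS2 gave 1093 and 1298, 2351 and 868 under a common total, 2170 and 939 without mitochondrially encoded genes in it and 1883 and 2494 with the trend removed. Cytosolic BS2 gave 688 and 352, 330 higher with no filter, 643 and 513 under median-of-ratios, 535 lower under quantile scaling and 1023 and 853 with the trend removed. Mitochondrial BS2 gave 812 and 432, 716 and 734 with no filter, 710 and 630 under quantile scaling and 1273 and 1289 with the trend removed. With 1 library left out these were 650 to 1886 and 901 to 2026, 83 to 1709 and 68 to 816, and 309 to 1577 and 167 to 910. For cytosolic BS2 against non-transfected, 3618 genes were lower, and 2338 without cytosolic replicate 2. No member value rested on fewer than 228 reads.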
